A study of Mus musculus with 6 samples.

Results

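The genes of the glutamate and GABA receptors were examined in bulk RNA from the subventricular zone (SVZ) of the mouse brain, which lines the lateral ventricle and holds neural stem cells. Members were chosen by gene symbol: those beginning Gria, Grin, Grik, Grid, Gabr or Gabbr, and Grm followed by a digit, leaving out a few protein-coding genes of like symbol, such as Grina, that encode no receptor subunit. This gave 48 of 18614 genes in the table. Of these, 47 encode receptor subunits: 4 AMPA, 7 NMDA, 5 kainate, 2 delta, 8 metabotropic glutamate, 19 GABA-A and 2 GABA-B receptor genes. The other 1 is Grin1os, an antisense RNA that lies within Grin1. Enough counts for a test were present for 43 members, of which 42 are subunit genes.

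The study compared 3 libraries from Zhx2+/+ mice (WT 1 to 3) with 3 libraries from mice labelled Zhx2Δ/Δ (KO 1 to 3), to ask what the transcriptional repressor Zhx2 does in this niche. Of these, KO 2 carries ZHX3 KO as its genotype tag and KO 3 carries ZHX4 KO, although both titles name ZHX2. The labels give no age, sex, strain or treatment, do not say how the deletion was made or in which cells it acts, and do not say whether libraries came from separate animals or pools. What a p-value measures here is therefore the spread among these libraries. It was far above counting noise, and the labels do not say how much of it is technical.

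Glutamate opens AMPA, NMDA and kainate receptors, which are cation channels built from 4 subunits each, and also acts on the metabotropic receptors, which signal through G proteins. GABA opens the chloride channels of the GABA-A class and acts through G proteins on GABA-B receptors. In the SVZ, GABA released by migrating neuroblasts is known to act on GABA-A receptors of the stem cells and to restrain their division, and neuroblasts carry glutamate receptors as they travel to the olfactory bulb. Mature neurons of the neighbouring striatum, septum and cortex hold the same gene families, so a bulk sample mixes these sources. Fewer cells of a type and less RNA per cell cannot be told apart in such samples.

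Libraries held between 17037152 and 17685906 estimated counts, of which the 47 subunit genes with Grin1os took between 0.519% and 0.649%. Zhx2, the targeted gene, was not lower in the KO-labelled libraries: its counts were 735, 675 and 659 for WT 1 to 3 but 1139, 1004 and 959 for KO 1 to 3, so every direction below is that of the libraries labelled KO. Markers of SVZ cell types were detected, with neuroblast markers at a mean of 4.91 to 5.80 log2 counts per 1000000 (CPM) in WT, against 5.26 to 5.57 in KO-labelled libraries. All 14 choroid plexus markers were lower in every KO-labelled library than in any WT library, with a summed level of 5389 to 23029 CPM in WT, against 328 to 529 CPM in KO-labelled libraries. The 12 pan-neuronal markers summed to 7463 to 9651 CPM in WT, against 9381 to 10072 CPM in KO-labelled libraries, and 11 of them had a positive log2 fold change (median 0.26).

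No receptor gene differed between the groups past the threshold of an adjusted p of 0.05. With edgeR's quasi-likelihood test, 0 of 43 members passed, where 0% of the 15126 genes tested passed (lowest adjusted p = 0.144 over all genes and 0.592 over the members). At an unadjusted p under 0.05 there were also 0 of 43, beside 9.07% of all genes, 2.68% higher and 6.39% lower in the KO-labelled libraries. DESeq2 called 311 genes, 2.06% of those tested, and none was a receptor gene. Limma-voom called 0 genes. Of the 42 subunit genes, 22 had a positive fold change, against 53.4% of all genes, and the median log2 fold change was 0.03, against 0.02 for all genes tested. The 95% confidence interval of the log2 fold change lay within -1 and 1 for 29 of the 42, against 77% of all genes. For the other 13 a 2-fold difference lies inside the interval.

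**Figure D1:**
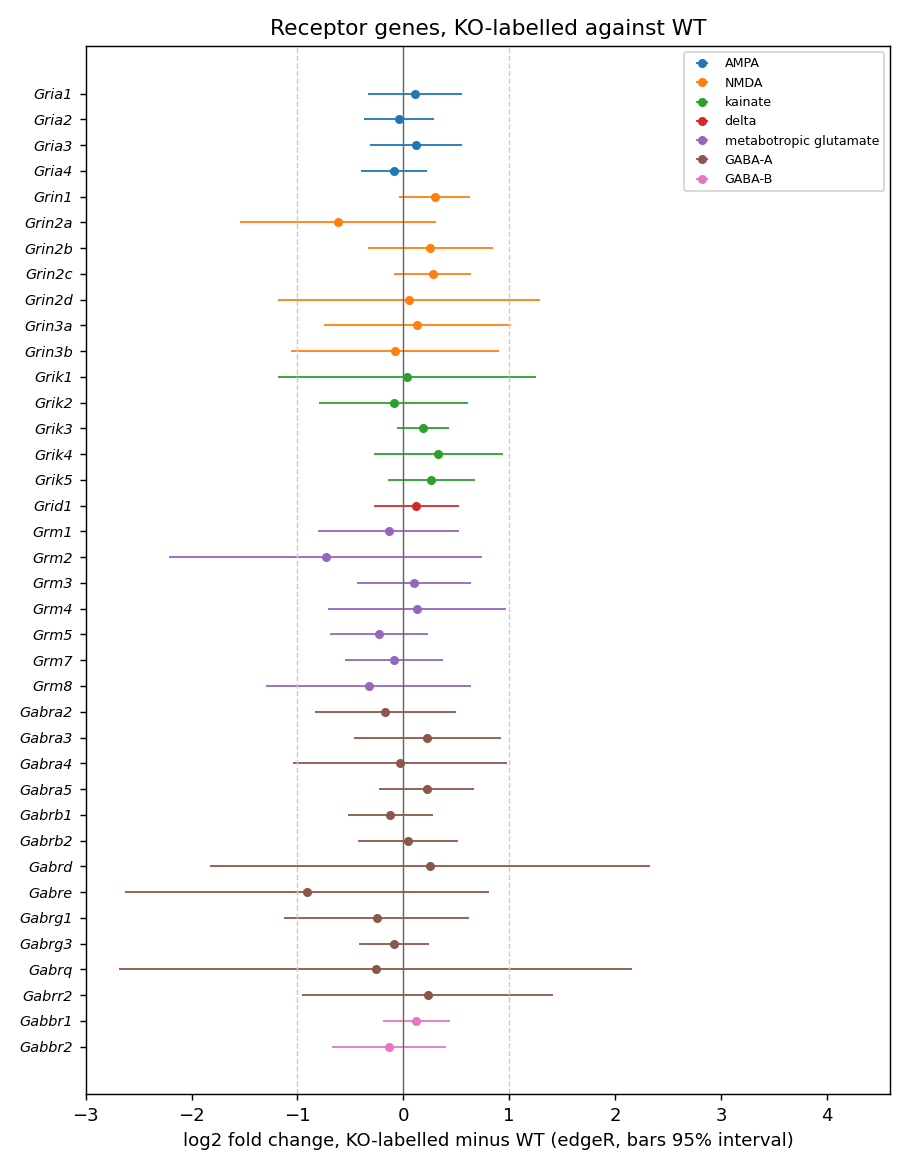
Log2 fold change of 38 of the 42 receptor genes tested, KO-labelled minus WT libraries, from edgeR. Points are estimates, bars are 95% confidence intervals, colours are receptor classes, and dashed lines mark -1 and 1. Every interval drawn includes 0, and the widest belong to Gabrd, Gabre and Gabrq.

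Levels per length, as FPKM summed over a gene's transcripts (a unit judged from the deposited values), show which subunits dominated. The highest levels were those of Gabbr1, Grin1 and Gria1, with means over the 6 libraries of 177, 129 and 103 FPKM. Gria2 and Grik5 followed at 74.7 and 60.8 FPKM, and their ranges over the libraries overlapped. The other 5 members were at or near 0 and were not tested. Gabra6, the alpha subunit of cerebellar granule cells, had 1 count in each of WT 1 and KO 3 and none elsewhere. Gabrr1 and Gabrr3, retinal rho subunits, and Grm6, the metabotropic receptor of retinal bipolar cells, had at most 4 counts in any library. Gabrp, the pi subunit, had 72 counts in KO 2 and at most 4 in each of the other 5 libraries.

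**Figure D2:**
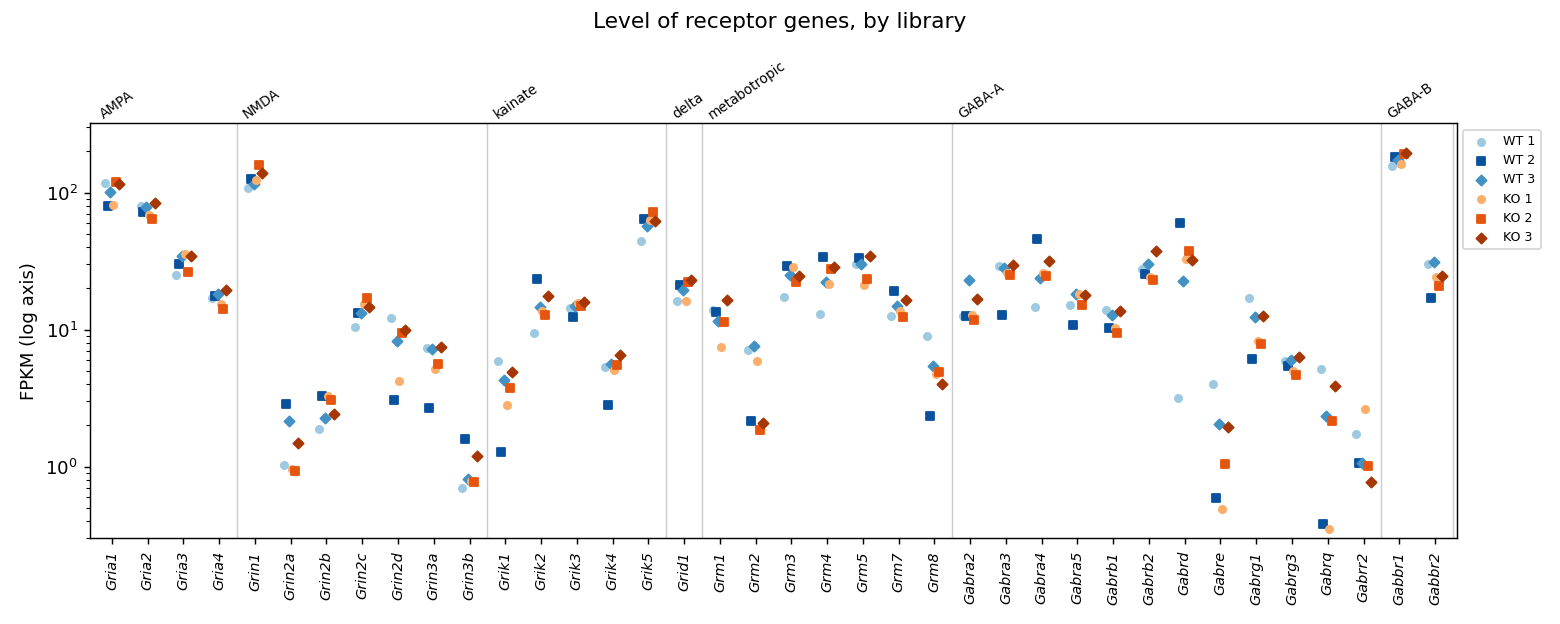
Level of 38 of the 42 tested receptor genes in every library, as FPKM on a log axis, grouped by receptor class. Gabbr1, Grin1 and Gria1 were the highest, and the libraries lay farthest apart for Gabrd and Gabrq.

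AMPA receptors carry most fast excitation. Gria1, which encodes GluA1 (NCBI gene 14799, chromosome 11, 57011571 to 57330244 in mm10), had the highest level of its class. It measured 627, 456 and 560 CPM in WT 1 to 3, against 466, 663 and 650 CPM in KO 1 to 3. The lowest values were those of WT 2 and KO 1, the groups overlapped, and the log2 fold change was 0.11 (SE 0.19, edgeR adjusted p = 0.881). Gria1 took 45.3% and Gria2, the subunit that limits calcium entry, 33.2% of the summed AMPA FPKM on average. Gria3 took 13.9% and Gria4 7.58%. The class total was 224 ± 21.0 FPKM in WT, against 227 ± 26.7 FPKM in KO-labelled libraries (SD, n = 3). All 4 fold changes lay between -0.09 and 0.12 on the log2 scale.

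AMPA transcripts carry 1 of a pair of neighbouring exons, called flop and flip, that encode alternative versions of a segment of the ligand-binding domain and set how fast the channel desensitises. Both exons have 115 bases and they differ at 36 bases in Gria1 and in Gria2. They are shown, read 5′ to 3′ along the gene from the mm10 genome, because the flop share described next counts transcripts with the first of each pair. Capitals mark the bases that differ between the flop and the flip exon of the same gene.
Gria1 flop, chr11:57309769-57309883, plus strand: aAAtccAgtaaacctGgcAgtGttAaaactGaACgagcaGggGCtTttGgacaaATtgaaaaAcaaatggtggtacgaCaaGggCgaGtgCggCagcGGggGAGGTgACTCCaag
Gria1 flip, chr11:57310608-57310722, plus strand: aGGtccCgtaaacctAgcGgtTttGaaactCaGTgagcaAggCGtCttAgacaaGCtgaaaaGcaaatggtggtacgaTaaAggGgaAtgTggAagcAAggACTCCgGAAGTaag
Gria2 flop, chr3:80691320-80691434, minus strand: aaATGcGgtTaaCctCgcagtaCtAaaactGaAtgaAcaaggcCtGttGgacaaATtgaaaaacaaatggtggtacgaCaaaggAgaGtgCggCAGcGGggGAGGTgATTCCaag
Gria2 flip, chr3:80690404-80690518, minus strand: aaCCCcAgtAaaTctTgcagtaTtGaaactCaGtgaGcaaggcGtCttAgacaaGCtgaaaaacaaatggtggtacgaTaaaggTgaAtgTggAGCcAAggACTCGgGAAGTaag

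The flop share of the flop and flip transcripts' counts was 44.0%, 50.7% and 47.3% for Gria1 in WT 1 to 3, against 38.3%, 43.6% and 46.4% in KO 1 to 3. For Gria2 it was 48.1%, 74.2% and 52.6% in WT, against 63.5%, 48.9% and 57.6% in KO-labelled libraries. Gria4 gave 42.5%, 64.3% and 48.4% in WT, against 59.0%, 57.0% and 52.4% in KO-labelled libraries. WT 2 had the highest flop share for all 3 genes, and the groups overlapped for each (two-sided exact permutation p = 0.2 for Gria1, 0.9 for Gria2 and 0.6 for Gria4). Only transcripts matched to GENCODE M21 entered, which held 54.3% to 64.4% of the Gria2 counts and 46.6% to 63.2% of the Gria4 counts. The matched Gria2 flop and flip transcripts also differ in length, 10371 against 4026 bases, so the flop share of Gria2 counts is not a share of molecules.

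NMDA receptors need GluN1, which binds glycine or D-serine, joined to GluN2 subunits, which bind glutamate. Grin1, the GluN1 gene (NCBI gene 14810, chromosome 2, 25291177 to 25319187, minus strand), had the smallest p of all members. Its level was 436, 548 and 482 CPM in WT 1 to 3, against 540, 675 and 585 CPM in KO 1 to 3. WT 1 was the lowest and KO 2 the highest, and WT 2 lay above KO 1. The log2 fold change was 0.30 (SE 0.14, edgeR adjusted p = 0.592), from 489 ± 56.4 to 600.02 ± 69.1 CPM (SD, n = 3). Grin1os, its antisense RNA (chromosome 2, 25291258 to 25298660, plus strand), was at 7.42, 9.84 and 10.4 CPM in WT, against 9.31, 14.3 and 11.8 CPM in KO-labelled libraries (log2 fold change 0.35, SE 0.21, edgeR adjusted p = 0.666). Because a strand-specific count is not stated, reads of Grin1 and Grin1os cannot be told apart where they overlap.

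Among the GluN2 genes, Grin2c had the largest share of the summed GluN2 FPKM, 53.7% on average, followed by Grin2d with 29.5%, Grin2b with 10.5% and Grin2a with 6.21%. This order turned in single libraries: in WT 1 Grin2d took 47.9% and Grin2c 40.7%, and in WT 2 Grin2b took 14.7% and Grin2d 13.6%. Grin2c, best known from cerebellar granule cells and astrocytes, was at 51.1, 71.9 and 70.5 CPM in WT, against 76.5, 84.8 and 73.2 CPM in KO-labelled libraries. Every KO-labelled library lay above every WT library, with KO 3 at 73.2 and WT 2 at 71.9 CPM the closest. The log2 fold change was 0.28 (SE 0.15, edgeR adjusted p = 0.643). Grin2a, a subunit of mature synapses, was at 5.90, 16.8 and 13.3 CPM in WT, against 7.07, 6.62 and 9.81 CPM in KO-labelled libraries. WT 1 was the lowest library of all and the other WT libraries the highest, and the log2 fold change was -0.62 (SE 0.39, edgeR adjusted p = 0.677). Grin2c and Grik3 were the 2 of 43 members whose KO-labelled libraries all lay above all WT libraries, against 8% of all genes tested. No member showed the opposite separation, against 8.74% of all genes.

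The summed NMDA level was the 1 class total whose groups did not overlap. It was 143, 153 and 149 FPKM in WT 1 to 3, against 154, 197 and 176 FPKM in KO 1 to 3, and Grin1 made up 79.5% of it on average. The log2 ratio of the group means was 0.25. The exact permutation p was 0.1, two-sided, the smallest that 3 against 3 allows, and 0.7 after adjustment over the 7 classes. KO 1 lay only just above WT 2. The pan-neuronal markers were also higher in the KO-labelled libraries on average, and the ratio of the NMDA total to their sum gave a log2 ratio of 0.01 between the groups. With the mean level of these markers as a covariate in edgeR, the log2 fold change of Grin1 went from 0.30 to 0.37. The part of the neuronal markers in the NMDA difference was not tested.

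Kainate receptors combine GluK1 to GluK3 with GluK4 or GluK5, which raise their affinity. Grik5, the GluK5 gene (NCBI gene 14809, chromosome 7, 25009849 to 25075694, minus strand), made up 60.7% of the kainate FPKM. It was at 162, 250.1 and 217 CPM in WT, against 244, 273 and 239 CPM in KO-labelled libraries. WT 1 stood lowest and WT 2 lay within the KO-labelled range, and the log2 fold change was 0.26 (SE 0.17, edgeR adjusted p = 0.688). Grik3, which encodes the low-affinity subunit GluK3 (NCBI gene 14807, chromosome 4, 125490259 to 125714173, plus strand), was at 124, 113 and 134 CPM in WT, against 146, 135 and 144 CPM in KO-labelled libraries. WT 3 and KO 2 were nearly equal, at 134.4 and 134.8 CPM, although the groups did not overlap. The log2 fold change was 0.19 (SE 0.10, edgeR adjusted p = 0.640), and 4 of the 5 kainate genes had a positive one. The class total was 93.6 ± 12.5 FPKM in WT, against 106 ± 4.50 FPKM in KO-labelled libraries (SD, n = 3), with overlapping groups.

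Delta receptors belong to the glutamate receptor family by sequence but are bridged to neurexins by cerebellins. Grid1 was at 63.5, 90.1 and 81.9 CPM in WT, against 71.6, 89.1 and 95.3 CPM in KO-labelled libraries, with overlapping groups (log2 fold change 0.12, SE 0.17, edgeR adjusted p = 0.856). The lowest libraries were WT 1 and KO 1. The delta total was 24.0 ± 2.82 FPKM in WT, against 24.5 ± 4.38 FPKM in KO-labelled libraries (SD, n = 3).

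Among the metabotropic receptors, Grm5 (NCBI gene 108071, chromosome 7, 87583981 to 88135063), whose product mGlu5 couples to calcium release, had the highest mean level, 28.8 FPKM. Grm4 and Grm3 followed at 24.6 FPKM each, and the ranges of all 3 over the libraries overlapped. Grm5 was at 249.6, 295 and 257 CPM in WT 1 to 3, against 187, 201 and 297 CPM in KO 1 to 3. KO 1 and KO 2 lay below every WT library, and KO 3 above. The log2 fold change was -0.23 (SE 0.19, edgeR adjusted p = 0.756). Without KO 3, DESeq2 gave -0.47 and an adjusted p of 0.0447, the only receptor call in any setting; this setting was chosen after the data were seen, and over all alternatives the adjusted p of Grm5 ranged from 0.0447 to 0.99997. Grm2, an inhibitory presynaptic receptor, was at 22.8, 7.38 and 25.1 CPM in WT, against 20.1, 6.16 and 6.93 CPM in KO-labelled libraries. KO 1 was near WT 1 and WT 3, while KO 2 and KO 3 were near WT 2 (log2 fold change -0.73, SE 0.61, edgeR adjusted p = 0.754). The fold change of Grm2 went from -1.49 without KO 1 to -0.44 without KO 2. The class total was 118 ± 15.1 FPKM in WT, against 112 ± 13.3 FPKM in KO-labelled libraries (SD, n = 3).

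Grm5 also has an alternative exon of 96 bases in the part that encodes the intracellular tail. It is shown from mm10 because its share had the widest gap between the groups of the 4 alternative exons compared. All bases are in lower case, since nothing is compared within it.
Grm5 extra exon, chr7:88116193-88116288, plus strand: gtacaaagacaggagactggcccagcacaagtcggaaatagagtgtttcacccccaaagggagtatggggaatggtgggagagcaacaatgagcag
The share of Grm5 counts on the transcript with this exon, of that transcript and the one without it, was 76.4%, 89.7% and 69.6% in WT 1 to 3, against 53.6%, 44.4% and 67.7% in KO 1 to 3. Every KO-labelled library lay below every WT library, with KO 3 at 67.7% and WT 3 at 69.6% the closest. The means were 78.6% ± 10.2 in WT, against 55.2% ± 11.7 in KO-labelled libraries (SD, n = 3). The exact permutation p was 0.1, two-sided, the smallest that 3 against 3 allows, and 0.4 after adjustment over the 4 exons. The paired transcripts held 83.0% to 96.4% of the gene's counts and also differ in length, 4500 against 8047 bases, and at their ends. Over all receptor genes, 17 of 82 transcript shares did not overlap between the groups, against 14.3% of 23976 transcript shares of all genes. Shares of 1 gene depend on each other, so these 17 are not independent.

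**Figure D3:**
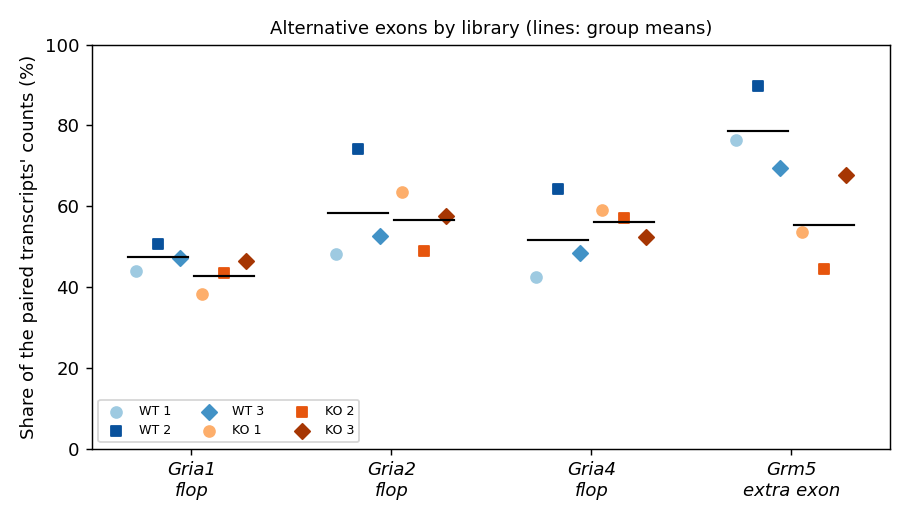
Share of counts on the transcripts with the flop exon of Gria1, Gria2 and Gria4 and with the extra exon of Grm5, in percent, for each library; lines are group means. The groups overlap for the flop exons, where WT 2 is the highest library, and do not overlap for Grm5.

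GABA-A receptors are mostly built from alpha and beta subunits with a gamma subunit, which holds them at synapses, or a delta subunit, which keeps them outside. The class total was 317 ± 25.1 FPKM in WT, against 320 ± 52.5 FPKM in KO-labelled libraries (SD, n = 3). Of the 15 GABA-A genes tested, 7 had a positive and 8 a negative fold change, between -0.91 and 0.25 on the log2 scale.

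**Figure D4:**
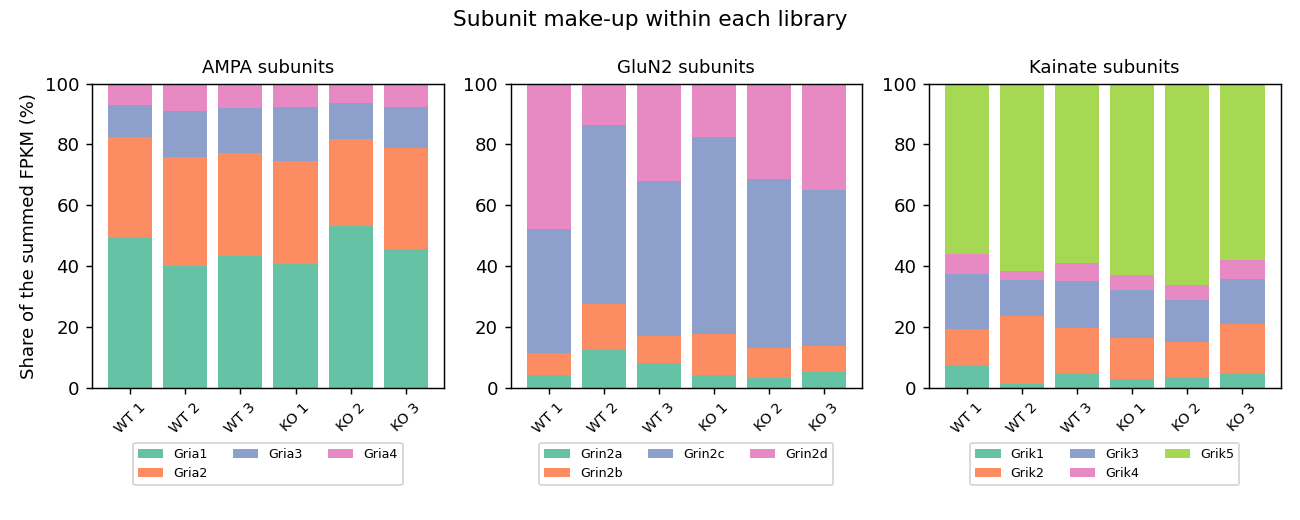
Share of each subunit in the summed FPKM of the AMPA, GluN2 and kainate genes, in percent, for each library (stacked bars from 0 to 100). Grin2d takes 47.9% of the GluN2 FPKM in WT 1 and 13.6% in WT 2.

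GABA-B receptors pair GABBR1, which binds GABA, with GABBR2, which couples to G proteins. Gabbr1 (NCBI gene 54393, chromosome 17, 37045966 to 37074305, plus strand) was at 673, 835 and 780.3 CPM in WT, against 744, 862 and 887 CPM in KO-labelled libraries. WT 1 was the lowest, the groups overlapped, and the log2 fold change was 0.12 (SE 0.13, edgeR adjusted p = 0.807). Gabbr2 was far lower per length: the ratio of Gabbr2 to Gabbr1 FPKM was 0.155 ± 0.0539 in WT, against 0.128 ± 0.0209 in KO-labelled libraries (SD, n = 3). WT 2 had the lowest ratio, 0.0935, and the groups overlapped. Both genes together came to 197 ± 9.94 FPKM in WT, against 206 ± 18.9 FPKM in KO-labelled libraries (SD, n = 3).

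Several receptor genes lay far apart among the WT libraries. In 15 of the 42 subunit genes tested the highest WT library was at least 2 times the lowest, against 15.8% of all genes; among the KO-labelled libraries this held for 6 of 42, against 9.69%. In 10 of the 15, all 3 KO-labelled libraries lay within the WT range. Choosing genes by a wide WT range favours this, and the same share over all genes was not computed. The 15 genes fell into 2 patterns, which were seen in the data and carry no test. Gabrd, Gabra4, Grin2a, Grm4, Grin3b and Grik2 were lowest in WT 1 and highest in WT 2, an order held by 34.3% of the 2389 genes of the whole table that were as far apart in WT. The other 9, Gabrq, Gabre, Grik1, Grin2d, Grm2, Grm8, Gabrg1, Grin3a and Gabra3, were lowest in WT 2, as were 40.4% of those 2389 genes. Both orders were thus common over all genes. No AMPA, delta or GABA-B gene was among the 15.

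Gabrd, which encodes the delta subunit of receptors outside synapses (NCBI gene 14403, chromosome 4, 155384979 to 155398098), had the widest range. It was at 5.68, 115 and 42.3 CPM in WT 1 to 3, against 63.3, 70.3 and 60.6 CPM in KO 1 to 3. The highest WT library was 20.3 times the lowest, and the KO-labelled libraries lay between WT 3 and WT 2 (log2 fold change 0.25, SE 0.86, edgeR adjusted p = 0.952). Its share of the GABA-A FPKM was 1.09%, 19.0% and 6.64% in WT 1 to 3. Gabra4, the forebrain partner of the delta subunit, was at 49.6, 168 and 84.7 CPM in WT, against 94.0, 87.8 and 114 CPM in KO-labelled libraries; it was named after its values were seen. Its order of the WT libraries was that of Gabrd.

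Gabrq and Gabre encode the theta and epsilon subunits, known from hypothalamus and brainstem, and lie within 1000000 bases of Gabra3 on the X chromosome. Gabrq was at 27.3, 2.22 and 12.8 CPM in WT, against 2.00, 11.5 and 21.9 CPM in KO-labelled libraries (log2 fold change -0.26, SE 1.01, edgeR adjusted p = 0.961). Gabre was at 12.2, 1.98 and 6.50 CPM in WT, against 1.65, 3.28 and 6.11 CPM in KO-labelled libraries (log2 fold change -0.91, SE 0.72, edgeR adjusted p = 0.744). The fold change of Gabre went from -1.48 without KO 3 to -0.21 without WT 1. WT 2 and KO 1 were the lowest libraries of their groups for both genes, and the groups overlapped. Neighbours on a chromosome did not all follow 1 pattern: on chromosome 5, Gabrg1 was at 77.1, 29.5 and 57.0 CPM in WT 1 to 3, lowest where Gabra4 was highest. Gabra2, between them, was at 42.9, 44.3 and 80.5 CPM, and Gabrb1, beside Gabra4, at 182, 143 and 183 CPM. These neighbours were named after their values were seen.

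Many marker lists had these WT orders too. By summed CPM, 5 of the 14 cell type lists were lowest in WT 1 and highest in WT 2. They were the striatal projection neuron, cerebellar neuron, activated stem cell and progenitor, microglia and endothelial lists. The cerebellar list summed to 139, 275 and 169 CPM in WT 1 to 3, of which its member Cbln3 gave 2.38, 1.80 and 2.73 CPM. Another 5 were lowest in WT 2 (pan-neuronal, interneuron, neuroblast, astrocyte and quiescent stem cell, and oligodendrocyte precursor). The 14 striatal projection neuron markers summed to 804, 9270 and 2850 CPM in WT 1 to 3, against 4320 to 5568 CPM in KO-labelled libraries, the widest WT range of these 10 lists. The 12 neuroblast markers summed to 1013, 730.3 and 998 CPM in WT 1 to 3. The order of some lists depended on the measure. The 11 cortical excitatory neuron markers summed to 2154, 2597 and 3753 CPM in WT 1 to 3, lowest in WT 1. Their mean was 3.95, 3.18 and 5.87 log2 CPM, lowest in WT 2. By mean log2 CPM, the cerebellar list was highest in WT 3, at 3.32, 3.60 and 3.79 in WT 1 to 3. The interneuron list was then lowest in WT 1, at 4.48, 4.76 and 5.26. None of the markers in the striatal, neuroblast and cortical lists was under 3 counts in all libraries. The part of any list in the differences between WT libraries was not tested.

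**Figure D5:**
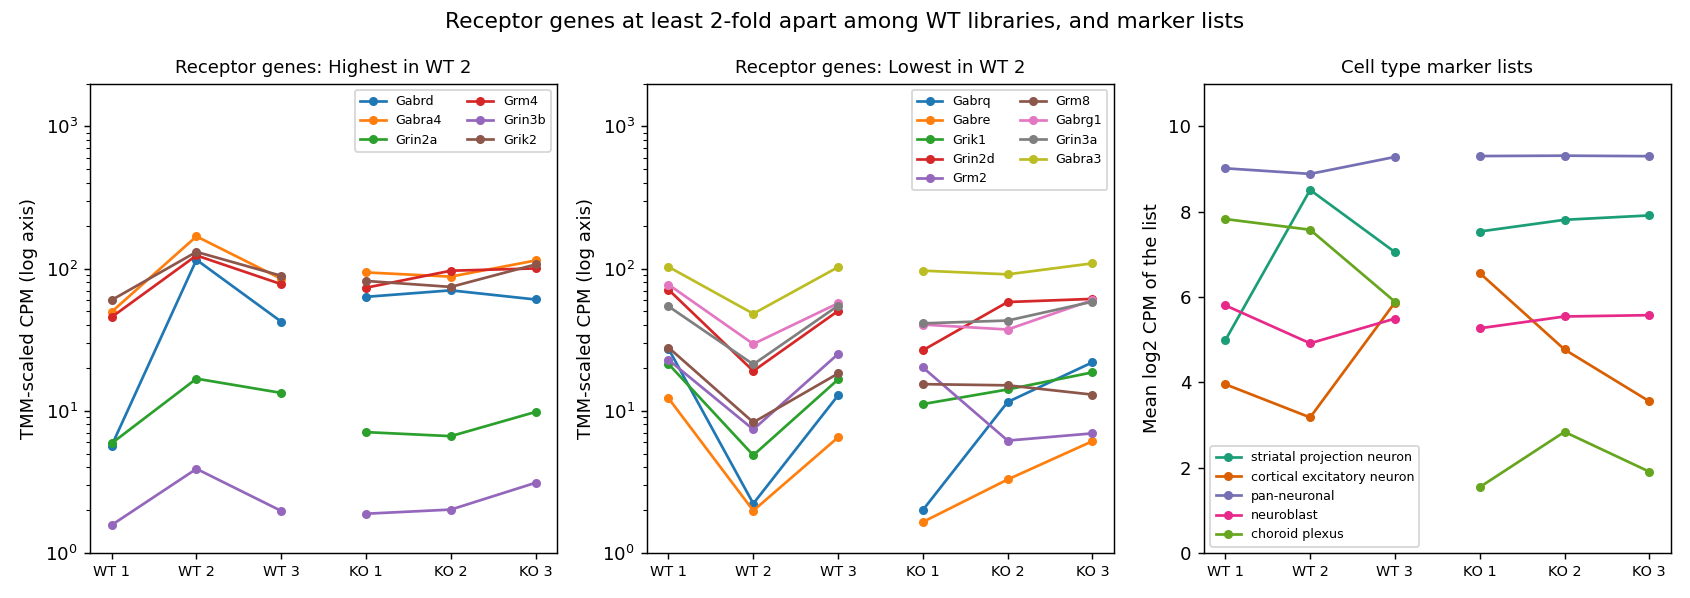
Left and middle, TMM-scaled CPM on a log axis of the 15 receptor genes at least 2-fold apart among WT libraries: 6 highest in WT 2 and 9 lowest in WT 2. Right, mean log2 CPM of 5 marker lists; lines join the libraries of a group to guide the eye and imply no order. The striatal list is highest in WT 2, at 8.51, and the neuroblast list lowest, at 4.91.

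Genes that work with the receptors were taken from 6 lists. With edgeR, 0 of their 74 members passed the threshold in either direction, where 0% of the 15126 genes tested passed. A count of 0 therefore does not set the lists apart from other genes. Of all genes tested, 53.4% had a positive fold change, and the median was 0.02 on the log2 scale. Of 15 AMPA and kainate auxiliary subunit genes, 11 were positive (median 0.13). Of 19 excitatory scaffold genes 14 were positive (median 0.07), among them Dlg4, the PSD-95 gene, at 573, 798 and 721 CPM in WT, against 829.96, 845 and 838 CPM in KO-labelled libraries. Of 7 delta receptor partners 5 were positive (median 0.22). The inhibitory synapse and GABA-B partners split 7 to 5 (median 0.07), and the genes of glutamate synthesis, release and uptake likewise (median 0.10). For GABA synthesis, release and uptake 7 of 9 were positive (median 0.16).

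Among these partners, Cbln1 had the smallest p. It encodes cerebellin-1, which bridges delta receptors to neurexins, and was at 17.9, 13.1 and 15.8 CPM in WT 1 to 3, against 6.19, 5.41 and 6.75 CPM in KO 1 to 3. The groups were well apart, at a log2 fold change of -1.35 (SE 0.17), but the edgeR adjusted p was 0.144. The vesicular glutamate transporter gene Slc17a6 was at 56.8, 29.5 and 40.8 CPM in WT, against 7.07, 12.8 and 23.7 CPM in KO-labelled libraries, again without overlap (log2 fold change -1.54, SE 0.46, edgeR adjusted p = 0.398). Gls2, a glutaminase gene, was at 11.5, 12.5 and 13.9 CPM in WT, against 20.7, 18.2 and 17.5 CPM in KO-labelled libraries (log2 fold change 0.57, SE 0.13, edgeR adjusted p = 0.250). Without overlap, KO-labelled libraries were higher for 1 of 15 auxiliary, 1 of 19 scaffold, 1 of 12 inhibitory and 2 of 12 glutamate genes. They were lower without overlap for 1 of 7 delta, 1 of 12 inhibitory and 1 of 12 glutamate genes. Over all genes tested, 8% were higher and 8.74% lower without overlap. The summed ependymal markers were at 181 to 271 CPM in WT, against 85.7 to 127 CPM in KO-labelled libraries, lower in each of these as the choroid plexus markers were. The part of either list in the partners' values was not tested.

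The promoters of 33 members, 40 windows of 250 bases before a start site in the RefSeq annotation of GRCm38.p6, were searched on both strands for 5 motifs. GGGCGG, a GC box, was in 18 of the 40, against 32.7% of the 32851 promoters of all genes. TATAAA was in 4, against 12.4%, and CACGTG, an E-box, in 1, that of Grin1, against 6.02%. GCGGGGGCG and TGACGTCA were in 0 of the 40, against 2.57% and 1.55%; GCGGGGGCG does not contain GGGCGG. Windows of 1 gene can overlap and share a match, as those of Gabra3 do for TATAAA, so the 40 windows are not independent. A match describes letters in the window only.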

How the data were processed

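Members and lists were chosen with earlier results of these data known. RNA was read as paired 50 base ends, per the labels. The deposited table gives estimated counts per RefSeq transcript for 6 libraries, per the file headers, and FPKM, a level per length and depth that the authors computed, judged from the values. Per the submitters' processing notes, the build was mm10 and the tools included limma 3.40.6. The aligner was not given in the sources used here. Counts were summed per NCBI gene number and rounded. Genes without a symbol took 0.104% to 0.140% of counts. No pair of libraries within a group agreed within sampling noise (chi-square per degree of freedom 21.7 to 95.5). Same-numbered libraries had correlations of -0.16, -0.07 and -0.04, against -0.15 to 0.18 for the other pairs. These values cannot show whether a number marks a shared animal or day. The labels do not say so, and the main test used no pairing.

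edgeR 4.0.16 in R 4.3.3 was the main test (TMM, filterByExpr minimum count 10, robust quasi-likelihood, two-sided, Benjamini-Hochberg over 15126 genes). Single values were compared with exact permutation tests. DESeq2 1.42.0, limma-voom 3.58.1, other scalings and filters, a neuronal covariate, a replicate block and left-out libraries were alternatives. In simulated counts for 15126 genes edgeR recovered 2.41%, 38.3% and 82.5% of genes changed 1.5-fold, 2-fold and 4-fold, and 8.86% of its calls were unchanged genes. DESeq2 recovered 14.5%, 66.7% and 86%, with 33.6% of its calls unchanged genes. The simulation drew each gene independently, around the same mean in every library of a group, so shifts shared by many genes were absent. These percentages need not hold for the data. There, edgeR called 0 of the 14 choroid plexus markers, whose median log2 fold change was -5.52. A count of 0 allows up to 0.170 to 0.176 CPM (3 counts, counting error only).

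Values in every library are given for the highest member per class by FPKM, the 5 smallest p per direction, the 3 widest WT ranges and up to 3 partners per list; others were named after their values were seen. Some members are not reported here.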

Additional observations from a re-analysis of the deposited data

How the results depend on the processing

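No setting but 1 called a receptor gene: DESeq2 without KO 3 called 1, Grm5 (log2 fold change -0.47). Over all genes DESeq2 called 311 where edgeR called 0. With 1 library left out, edgeR called 0 to 137 genes (137 without WT 3). DESeq2 then called 139 (without WT 1), 348 (WT 2), 451 (WT 3), 275 (KO 1), 257 (KO 2) or 317 (KO 3), chosen after seeing the data. The cause was not tested.

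Several small fold changes changed sign. Gria1 went to -0.013 with the neuronal covariate and to -0.014 (DESeq2 -0.011) without WT 2. Without WT 1, Gabrd was at -0.28 (DESeq2 -0.29), Gabrq at 0.65 in both tools and Grid1 at -0.011 in both. Without KO 1, Gabrq was at 0.24 (DESeq2 0.22). With single libraries left out in edgeR, Gabrd ranged from -0.28 to 1.43, Gabrq from -1.06 to 0.65, Gria1 from -0.014 to 0.26 and Grid1 from -0.011 to 0.23. Others kept their sign but moved by over 1.5 times: Grin2a from -0.94 (without WT 1) to -0.30 (WT 2), Grm5 from -0.46 (KO 3) to -0.10 (KO 1), Grin2c down to 0.14 (WT 1), Grik5 from 0.11 (WT 1) to 0.40 (WT 2), Grik3 down to 0.12 (WT 2), Gabbr1 from 0.041 (WT 1) to 0.20 (KO 1) and Grin1os down to 0.19 (KO 2). Limma-voom gave 1.11 and the replicate block 0.95 for Gabrd. The neuronal covariate gave 1.06 for Gabrd, -0.81 for Gabrq, -1.48 for Grm2, -0.12 for Grm5 and 0.051 for Grik3.

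The log2 ratio of class totals, set against the pan-neuronal sum, was -0.21 for AMPA, -0.059 for kainate, -0.20 for delta, -0.22 for GABA-A and -0.16 for GABA-B, all positive without it. With single libraries left out it ranged from -0.074 to 0.096 for AMPA, -0.085 to 0.17 for delta, -0.18 to 0.021 for metabotropic and -0.13 to 0.096 for GABA-A receptors.

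With the replicate number as a block, edgeR called 0 genes and 0 receptor genes, and Gabrq was at 0.051; it changed no call. Gabre and Gabrq, whose intervals were among the widest, had as few as 28 and 34 counts in a library.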
